A study of Mus musculus with 106 samples.

Results

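Total RNA from the cerebellum of vGluT2-IRES-Cre mice that carried an expanded Huntingtin allele (HD) was compared with that of littermates without it. The libraries were those labelled celltype vGlut2, tissue Cerebellum and preparation Input, 8 of the 106 libraries of the series, 4 HD and 4 control. All of these mice were congenic on the 129S4 background, about 9 months old, and heterozygous for vGluT2-IRES-Cre and for the RiboTag allele Rpl22-HA. HD mice were heterozygous knock-ins, Hdh Q7/Q200, and controls were Hdh Q7/Q7. The series asks how cell types of cerebellum and cerebrum respond to mutant huntingtin before motor signs appear, by pulling down tagged ribosomes from cells that express Cre. The RNA here came from the cleared homogenate of a flash-frozen cerebellar hemisphere before that pulldown, so it holds every cell type of the cerebellum and the Cre line does not select any of them. It was sequenced from poly(A)-selected stranded libraries. The labels give no sex.

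The cerebellar cortex holds very many small glutamatergic granule cells, whose axons excite the large inhibitory Purkinje cells, together with inhibitory interneurons, Bergmann glia, oligodendrocytes and microglia. Huntingtin is made in all of them, and the cerebellum is affected later and less than the striatum in most descriptions of the disease. The yield of fragments from a transcript in a sequencing library is known to depend on its base composition and length, and the size of this dependence can vary between libraries.

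In HD libraries, the cell cycle gene *Ccnd1* and the Polycomb gene *Cbx8* rose and *Igfbp5* fell, as they did in the pulldown of the same line. The receptor genes *Gabrb2* and *Gria3* fell here and were not called in the pulldown. Of 81 ribosomal protein genes, 81 nuclear genes of the respiratory chain and 10 microglial markers, 61, 52 and 6 were called higher. In a fit with offsets for GC content and length, 39, 31 and 4 were called higher, beside 15.3% of all genes. Both fits called 31, 22 and 2 of them higher. These changes sat within a difference that reached most of the transcriptome: edgeR's quasi-likelihood method, at a Benjamini-Hochberg adjusted p of at most 0.05, called 7565 of the 14630 protein-coding genes tested (51.7%), 3573 (24.4%) higher and 3992 (27.3%) lower in HD. The difference followed base composition and transcript length, and the median level of the most AU-rich and of the longest transcripts was lower in every HD library than in every control library. In the Gad2 line, whose cerebellar total RNA came from other mice, edgeR called 0 of 14226 genes, with 316 at an unadjusted p under 0.05, and DESeq2 called 17. Levels are given as CPM, counts scaled to library size, and the error after ± is a standard error unless SD is written.

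Counts assigned to mouse genes came to 46262978, 44150406, 39546825 and 35858940 in controls 1 to 4 and 47991990, 39429254, 54734074 and 42936790 in HD 1 to 4. Mitochondrially encoded transcripts made up 9.21, 7.15, 4.13 and 8.72 in controls 1 to 4 and 4.71, 7.38, 3.12 and 5.97 in HD 1 to 4, as a percentage of counts. Spike-in transcripts made up at most 2.35% of a library's counts and were left out of library sizes. The GC content of transcripts weighted by counts was 49.9, 50.4, 51.3 and 49.8 in controls 1 to 4 and 52.5, 51.7, 52.7 and 51.8 in HD 1 to 4, as a percentage. Each HD library lay above each control library on this measure, and the lowest HD value, in HD 2, stood next to the highest control value, in control 3. Between libraries of a group the chi-square per degree of freedom of the counts was 35.8 to 185, where counting error alone gives values near 1. Protein-coding genes held 94.0, 95.5, 96.2 and 93.5% of counts in controls 1 to 4 and 92.1, 91.0, 93.0 and 90.9% in HD 1 to 4, with each HD library below each control.

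Marker genes matched the tissue label. Markers of granule cells summed to 9070, 7794, 7703 and 6887 CPM in control and 7883, 8197, 7332 and 8870 CPM in HD libraries, and all 14 of them were counted in every library. Markers of cerebral neurons summed to 11.6, 8.51, 5.45 and 17.2 CPM in control and 6.77, 13.9, 29.0 and 11.9 CPM in HD libraries. The choroid plexus marker *Ttr*, which encodes transthyretin, stood at 1614, 1527, 1811 and 198 CPM in the control libraries and 1048, 1642, 1627 and 29.5 CPM in the HD libraries. Markers of choroid plexus together came to 214 and 42.2 CPM in control 4 and HD 4 and to 1100 CPM or more in each of the others. *Slc17a6*, which encodes vGluT2 itself and is strong in brainstem and deep nuclear neurons, stood at 11.1, 9.79, 6.40 and 65.9 CPM in the control libraries and 2.05, 7.00, 9.79 and 4.65 CPM in the HD libraries, with control 4 far above all others. Without control 4 its log2 fold change moved from -1.98 (adjusted p = 0.0446) to -0.63 (adjusted p = 0.27), and the call was also lost without HD 1 (-1.69), HD 2 (-2.07) or HD 4 (-1.88).

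Y-linked *Ddx3y* was counted in control 2, HD 2 and HD 3 (48.8, 13.3 and 4.92 CPM) and at 0 in the other libraries. Of the 36 mice with more than 1 library in the series, 3 had libraries that differed in whether Y-linked genes were counted, and all 3 were vGlut2 control mice. The mouse of control 2 was the only such mouse with cerebellar total RNA: its pulldown library from the same tissue held *Xist* at 30.5 CPM and no Y-linked counts, against 0 CPM of *Xist* in the total RNA. Both cerebral libraries of that mouse held Y-linked counts. Control 2 was kept in its labelled group, and the comparison of preparations, which pairs it with the pulldown of its labelled mouse, was also run without it. Leaving control 2 out of the comparison gave 6386 called genes in place of 7565, and leaving out control 4 and HD 4 together, a choice made after seeing the data, gave 6073.

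The genes tested were those with a mean count over 10 in these libraries, and 7565 of them were called. For 6986 genes (47.8%) the ranges of the HD and the control libraries lay apart, of which 3426 (23.4%) were higher in HD and 3560 (24.3%) lower. DESeq2 called 7939 genes (54.3%). Falls were larger than rises: among called genes, 218 were at least 1 log2 unit higher and 2287 at least 1 log2 unit lower, and 9 and 419 passed 2 log2 units. With GC and length offsets the counts were 291 and 690 at 1 log2 unit and 13 and 79 at 2. In fits that each left out 1 library, 6293 to 7811 genes were called, 6254 to 7114 of them shared with the main fit, and 5709 genes passed in every such fit. In a principal component analysis of the 500 most variable genes, the first component held 47.5% of the variance and separated the groups, with scores of -25.6, -25.6, -10.8 and -29.6 for the controls and 11.5, 21.8, 38.1 and 20.2 for the HD libraries.

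The size and sign of the difference ran with base composition. In the decile of genes with the lowest GC content (31.9 to 43.1% of the transcript), 1036 of 1463 genes were called lower and 4 higher, with a median log2 fold change of -1.21. The decile with the highest GC content (58.4 to 74.2%) showed the opposite, with 772 called higher, 32 lower and a median of 0.50. Medians climbed through every decile between these. Transcript length ran the other way: the shortest decile (204 to 914.5 bases) had 622 genes higher and 85 lower, at a median of 0.43, and the longest decile (from 3736 bases) had 116 higher and 739 lower, at a median of -0.60. Across the 14630 genes, Spearman's rho of log2 fold change was 0.667 with GC content and -0.378 with length. GC content and length were themselves related across genes (rho -0.210), and genes are not independent of each other, so these values describe the pattern and carry no test. Genes called higher had a median GC content of 55.7% and a median length of 1430 bases, those called lower 45.6% and 2428 bases, and all tested genes 51.1% and 1850 bases.

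**Figure D1:**
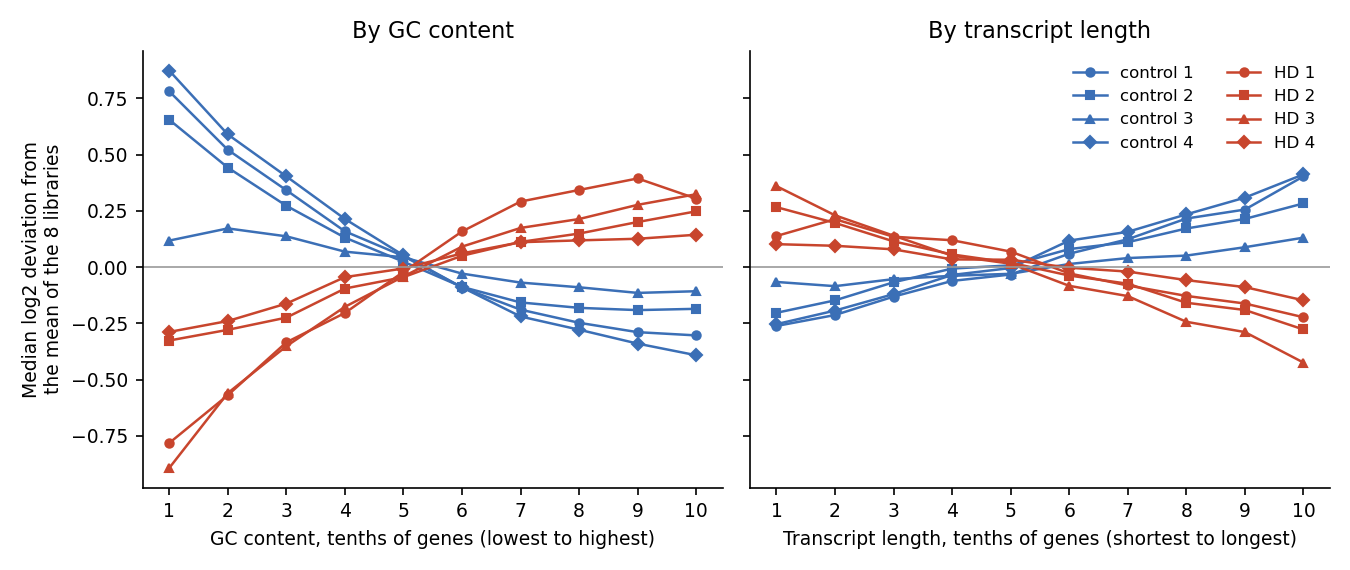
Median log2 deviation of each library from the mean of the 8 libraries, for deciles of the 14630 tested genes ordered by GC content (left) and by transcript length (right). In the lowest GC decile the medians were 0.78, 0.65, 0.12 and 0.87 for controls 1 to 4 and -0.78, -0.33, -0.89 and -0.29 for HD 1 to 4.

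The trend was present library by library. A GC slope was fitted within each library, as the change in log2 deviation from the mean of all libraries per 10 percentage points of GC content. It was -0.56, -0.45, -0.15 and -0.64 in controls 1 to 4 and 0.58, 0.33, 0.64 and 0.25 in HD 1 to 4. No control reached the lowest HD library, and control 3 was the closest to the HD group. The means were -0.45 ± 0.22 and 0.45 ± 0.19 (SD, n = 4 each), a difference of 0.90 with a two-sided exact permutation p of 0.0286, the smallest that 4 against 4 libraries allow. Length slopes, per 10-fold length, were 0.80, 0.61, 0.25 and 0.83 in the controls and -0.42, -0.70, -1.01 and -0.36 in HD, a difference of -1.25 (two-sided exact permutation p = 0.0286, n = 4 each). With GC content and length in 1 regression the differences were 0.83 for GC content and -0.83 for length, each with the same p. Since every HD library sloped upward with GC content and every control downward, the slope and the genotype cannot be told apart within these 8 libraries.

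Neither comparison outside these libraries showed such a separation. In cerebellar total RNA of the Gad2 line, from 3 HD and 3 control mice, GC slopes ran from -0.44 to 0.22 in controls and from -0.53 to 0.55 in HD, a difference of 0.06 (exact permutation p = 1, where the smallest possible is 0.1). Their length slopes differed by -0.21 (exact permutation p = 0.7). In the cerebellar pulldown of the vGluT2 line, from 5 control and 6 HD mice, GC slopes differed by 0.11 (exact permutation p = 0.455) and length slopes by -0.03 (exact permutation p = 0.916). Of the mice that gave the total RNA, controls 1, 2 and 3 had pulldown GC slopes of -0.25, -0.06 and -0.04, and HD 1 to 4 had -0.07, -0.25, -0.07 and 0.19. Cerebral total RNA of the same labelled mice had GC slopes of 0.52, 0.35 and -0.18 for controls 2, 3 and 4 and 0.30 and -0.37 for HD 2 and HD 4. The wide slopes of cerebral and Gad2 libraries thus fell on both genotypes, whereas in the cerebellar total RNA of the vGluT2 line they fell by genotype.

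**Figure D2:**
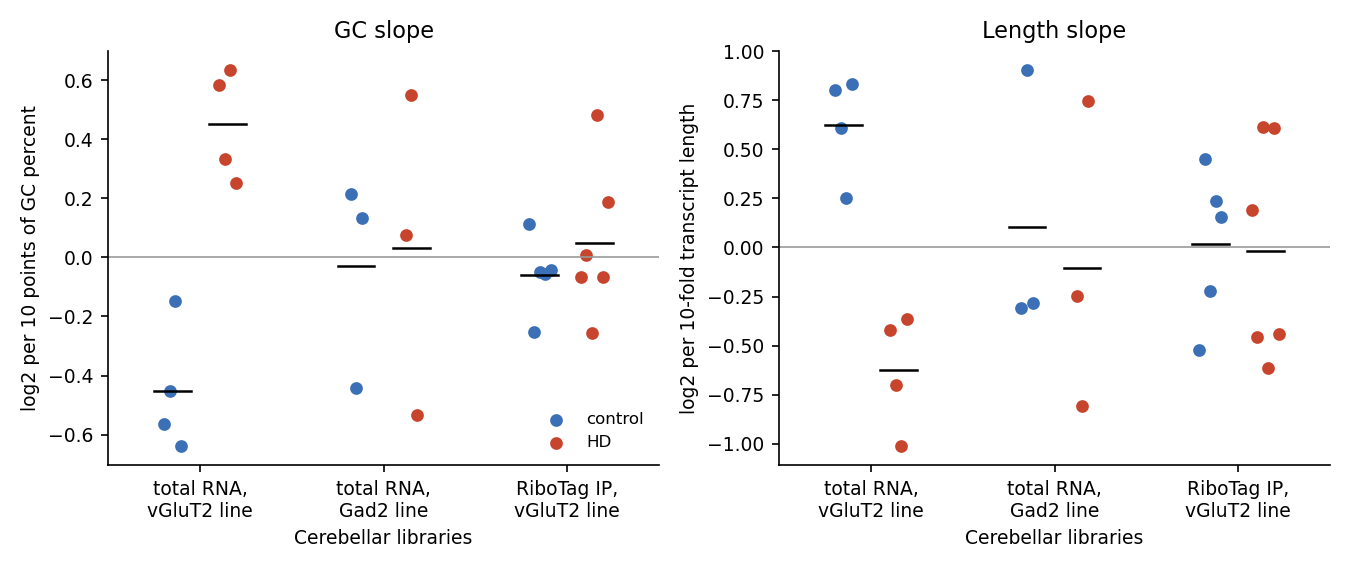
GC slope (left) and length slope (right) of each cerebellar library in total RNA of both lines and in the vGluT2 pulldown (RiboTag IP); each set was centred on its own mean and bars mark group means. HD minus control GC slopes were 0.90, 0.06 and 0.11.

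To see which genes differed beyond the trend, the counts were fitted again with offsets that remove each library's smooth dependence on GC content and then on length. This sets each gene against others of like composition, and any HD effect that itself follows GC content or length is removed with it. With these offsets 4417 genes were called (30.2% of those tested), 2237 higher (15.3%) and 2180 lower (14.9%). Both fits called 1225 genes higher and 1654 lower. A further 4554 genes were called only without offsets, 1406 only with them, and 132 changed direction between calls: 10 from higher to lower and 122 from lower to higher. Spearman's rho with GC content and length across genes were -0.07 and -0.02 with offsets. The count with offsets ranged from 3011 to 5687 when 1 library was left out and was 2404 without control 4 and HD 4, and 1751 genes (666 higher and 1085 lower) were called in every leave-one-out fit both without and with offsets. Among genes named below, *Cdkn1c*, *Cbx2*, *Setd2*, *Foxp2*, *Scn1a*, *Cox4i1*, *Gapdh*, *Hsp90aa1*, *Hspa8* and *Fdps* each lost the call with offsets in at least 1 leave-one-out fit.

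*Ccnd1*, which encodes the G1 cyclin D1, was among the clearest rises. It stood at 26.4, 27.2, 27.9 and 26.5 CPM in the control libraries and 78.5, 84.4, 96.4 and 106 CPM in the HD libraries. The control libraries were nearly level and every HD library was well above them. The log2 fold change was 1.76 ± 0.13, adjusted p = 3.3e-05, and 1.43 ± 0.13, adjusted p = 0.00022 with offsets. In the Gad2 line it was 1.61 ± 0.17 (adjusted p = 0.374), and in the pulldown from the vGluT2 line 1.79 ± 0.11 (adjusted p = 3.4e-06). Of the list of D cyclins, cyclin-dependent kinases and cell cycle brakes, 6 of the 14 tested genes were called higher and 2 lower, with a median of 0.47. With offsets there were 3 higher and 1 lower, with a median of 0.09. Over all genes tested, 24.4% were called higher and 27.3% lower, or 15.3% and 14.9% with offsets, with medians of 0.001 and 0.004. A list whose shares lie near these gives no result about its members. The cyclin-dependent kinase inhibitor gene *Cdkn1c* rose (1.24 ± 0.21, and 0.58 ± 0.18 with offsets), while another, *Cdkn1a*, was called without offsets only (0.53 ± 0.14, and 0.20 ± 0.12, adjusted p = 0.25 with offsets). *Rb1*, the retinoblastoma gene that restrains entry into S phase, was called lower without offsets only (-1.06 ± 0.27, and -0.15 ± 0.18, adjusted p = 0.557 with offsets).

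*Plk5*, a polo-like kinase of neurons and glia, stood at 35.5, 56.2, 48.3 and 33.2 CPM in the control libraries and 35.3, 24.5, 20.1 and 22.4 CPM in the HD libraries. The groups overlapped, since HD 1 lay between controls 4 and 1, and the other HD libraries were lower than all controls. Its fall was -0.76 ± 0.22, adjusted p = 0.0149, and larger with offsets (-1.32 ± 0.19, adjusted p = 0.00106), with -1.16 in the Gad2 line and -1.11 in the pulldown.

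Polycomb repressive complexes modify histones to keep genes silent, and the CBX proteins are the subunits of the first complex that read the mark left by the second. *Cbx8* stood at 11.9, 12.0, 11.8 and 10.9 CPM in the control libraries and 43.2, 25.3, 28.6 and 40.2 CPM in the HD libraries. It did not overlap between groups. Its log2 fold change was 1.56 ± 0.18, adjusted p = 0.000168, with 1.05 ± 0.17 under offsets. *Cbx2*, at a lower level, rose by 0.95 ± 0.18 (0.56 ± 0.17, adjusted p = 0.0365 with offsets), and *Pcgf2*, which encodes another core subunit, was called without offsets only (0.58 ± 0.15, and 0.13 ± 0.13, adjusted p = 0.463 with offsets). *Cbx8*, *Cbx2* and *Pcgf2* had 1.18, 0.78 and 0.40 in the Gad2 line, where none was called, and 1.29, 1.09 and 0.53 in the pulldown, where *Cbx8* and *Cbx2* were called. Over the first complex as a whole, 7 of the 16 tested genes were called higher and 3 lower (median 0.30), and 3 higher and 1 lower with offsets (median -0.04). The subunit gene *Phc3* went the other way (-1.84 ± 0.18, and -1.33 ± 0.14 with offsets). Of the second complex, 3 of the 11 tested genes were called higher and 7 lower (median -0.72), and 2 higher and 1 lower with offsets (median -0.01). Its core subunit gene *Suz12*, of 38.8% GC, illustrates the trend, with -1.34 ± 0.25 without and 0.04 ± 0.12 with offsets. The shares over all genes were 24.4% higher and 27.3% lower, or 15.3% and 14.9% with offsets. Without offsets the share called higher in the first complex and the share called lower in the second were above these. Both were near the shares of genes of like GC content. The decile that holds the first complex's median GC content (55.6%) had 44.6% called higher, and that of the second (44.8%) had 63.4% called lower. With offsets the counts of both complexes were near the shares over all genes.

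*Igfbp5*, whose product binds insulin-like growth factors, stood at 296, 209, 243 and 274 CPM in the control libraries and 101, 97.5, 96.1 and 109 CPM in the HD libraries. Every HD library was below every control, at similar levels. The fall was -1.34 ± 0.13, adjusted p = 9.8e-05 (-0.96 ± 0.10 with offsets), beside -1.17 ± 0.18 in the Gad2 line (adjusted p = 0.722) and -1.78 ± 0.13 in the pulldown (adjusted p = 7.4e-06). *Igfbp4*, a related binding protein gene, rose (1.34 ± 0.18, and 0.76 ± 0.17 with offsets), with 0.25 and -0.42 in the Gad2 line and the pulldown. Of the insulin-like growth factor list, 3 of the 10 tested genes were called higher and 4 lower (median 0.06). With offsets 1 was higher and 3 lower (median -0.26). Over all genes 24.4% were called higher and 27.3% lower, or 15.3% and 14.9% with offsets. The list's share called higher was near that of all genes without offsets. Its share called lower was above that of all genes in both fits, but on 4 and 3 genes, too few to give a result about the list.

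*Htt* itself stood at 115, 115, 129 and 102 CPM in the control libraries and 113, 72.5, 62.1 and 76.8 CPM in the HD libraries. HD 1 lay among the controls and the other HD libraries below them. The log2 fold change was -0.51 ± 0.18, adjusted p = 0.0365, and 0.38 ± 0.21, adjusted p = 0.191 with offsets, so the sign turned with the adjustment. The call was also lost without control 1 (-0.48), control 3 (-0.47), HD 2 (-0.46), HD 3 (-0.40) or HD 4 (-0.48). Counts are summed over both alleles, and reads from the knock-in allele were not separated. Of huntingtin and its partners, 3 of the 13 tested genes were called higher and 5 lower (median -0.21). With offsets 1 was higher and 3 lower (median -0.07). Over all genes 24.4% were called higher and 27.3% lower, or 15.3% and 14.9% with offsets. The list's share called higher was near that of all genes without offsets. Its share called lower was above that of all genes in both fits, but on 5 and 3 genes, too few to give a result about the list. *Setd2*, which encodes a histone methyltransferase that binds huntingtin, stood between 48.4 and 59.1 CPM in the control libraries and at 22.9, 9.71, 8.98 and 8.56 CPM in the HD libraries (-2.14 ± 0.30, adjusted p = 0.000431, and -1.25 ± 0.34, adjusted p = 0.02 with offsets).

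**Figure D3:**
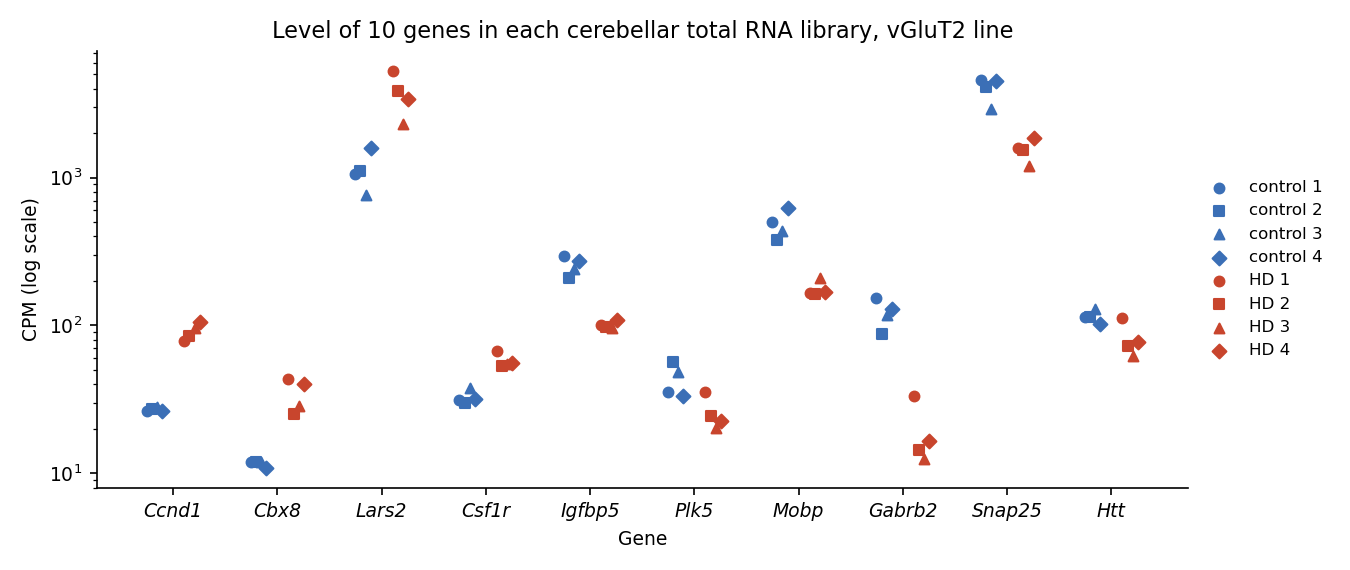
CPM of 10 genes in each of the 8 libraries, on a log axis, with symbols for the replicate number. HD minus control log2 fold changes were 1.76 for *Ccnd1*, 1.56 for *Cbx8*, 1.72 for *Lars2*, 0.82 for *Csf1r*, -1.34 for *Igfbp5*, -0.76 for *Plk5*, -1.46 for *Mobp*, -2.67 for *Gabrb2*, -1.38 for *Snap25* and -0.51 for *Htt*.

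Without offsets, markers of most cell types were called in both directions, as were genes in general. With offsets this held only for granule cells, Purkinje cells, Bergmann glia and astrocytes, oligodendrocytes and oligodendrocyte precursors. In bulk tissue, fewer cells of a type and less RNA per cell cannot be told apart. Of 14 granule cell markers, 4 were called higher and 3 lower (median 0.01, and with offsets 2 higher and 2 lower, median 0.18), beside 24.4% higher and 27.3% lower over all genes, and 15.3% and 14.9% with offsets. *Calb2*, the calcium-binding protein calretinin, stood at 315, 447, 576 and 376 CPM in the control libraries and 1137, 1189, 1341 and 1089 CPM in the HD libraries, a rise of 1.47 ± 0.18, adjusted p = 0.000202 (1.21 ± 0.15 with offsets). *Slc17a7*, the vesicular glutamate transporter of granule cells, rose by 0.98 ± 0.14 (0.70 ± 0.12 with offsets). *Cbln3*, a synaptic organiser secreted by granule cells, fell: -0.53 ± 0.14, adjusted p = 0.0104, and -0.55 with offsets, -0.60 in the Gad2 line and -0.80 in the pulldown. With length offsets alone it was -0.14 (adjusted p = 0.392). The receptor subunit gene *Gabra6*, of 41.3% GC, was called lower without offsets (-0.92 ± 0.21) and stood at 0.25 ± 0.12 with them.

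Purkinje cell markers summed to 5867, 6303, 6656 and 6751 CPM in control and 4554, 4086, 3967 and 4136 CPM in HD libraries, and the groups did not overlap on this sum, to which *Itpr1* gave the most. Of 13 markers, 2 were called higher and 6 lower (median -0.15, and with offsets 2 higher and 5 lower, median -0.32), beside 27.3% lower over all genes, and 14.9% with offsets. In both fits 0 were called higher and 2 lower. *Itpr1*, the calcium release channel of Purkinje dendrites, stood at 1846, 2161, 2525 and 2353 CPM in the control libraries and 1519, 702, 671 and 847 CPM in the HD libraries. HD 1 was the nearest to the controls, and the other HD libraries were lower still. The fall was -1.25 ± 0.25, adjusted p = 0.00224 (-1.01 ± 0.23, adjusted p = 0.00972 with offsets). *Foxp2*, a transcription factor, fell by 1.87 ± 0.41 (-1.24 ± 0.37, adjusted p = 0.028 with offsets).

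Markers of molecular layer interneurons and Golgi cells summed to 1202, 1179, 1160 and 1329 CPM in control and 989, 917, 894 and 1061 CPM in HD libraries. All HD sums were below all control sums, and *Gad1* was the most abundant member. Of these genes, 1 of 10 was called higher and 5 lower (median -0.46, and with offsets 0 higher and 3 lower, median -0.17), beside 27.3% lower over all genes, and 14.9% with offsets. *Gad1*, which makes GABA from glutamate, fell (-0.43 ± 0.14, adjusted p = 0.0259, and -0.58 ± 0.13, adjusted p = 0.00861 with offsets). Its call was lost without control 4 (-0.35), HD 2 (-0.38) or HD 3 (-0.36). *Slc32a1*, which loads GABA into vesicles and has 61.9% GC, was called higher without offsets only (0.45 ± 0.11, and 0.07 ± 0.10, adjusted p = 0.632 with offsets). Unipolar brush cells had 2 of 3 markers lower (median -0.89, and with offsets 1 lower).

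Oligodendrocyte markers moved apart from each other. *Mobp*, a myelin protein gene, fell with and without offsets (-1.46 ± 0.16, and -1.74 ± 0.17 with offsets), as *Ermn*, of 38.0% GC, did without them (-2.23 ± 0.17, and -0.50 ± 0.19, adjusted p = 0.0712 with offsets). In contrast *Cnp*, of 54.6% GC, rose in both fits (0.93 ± 0.15, and 0.59 ± 0.12 with offsets), and *Mbp*, which encodes myelin basic protein, overlapped between the groups (0.10 ± 0.13, adjusted p = 0.557, and -0.35 ± 0.12, adjusted p = 0.0556 with offsets). In all, 4 of 10 markers were called higher and 3 lower (median -0.08, and with offsets 3 higher and 2 lower, median -0.01), and the summed level was 4724, 4852, 4776 and 5850 CPM in control and 3945, 3801, 4620 and 3593 CPM in HD libraries. HD 3 stood near the controls on this sum. Over all genes 24.4% were called higher and 27.3% lower, or 15.3% and 14.9% with offsets. The share of markers called lower was near that of all genes. The share called higher was above that of all genes in both fits, but on 4 and 3 markers, too few to give a result about the list.

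Microglial markers summed to 161, 152, 169 and 179 CPM in control and 252, 251, 268 and 253 CPM in HD libraries, with no overlap. Of 10 markers, 6 were called higher and 0 lower (median 0.67), beside 24.4% of all genes called higher, and with offsets 4 were higher and 0 lower (median 0.30), beside 15.3%. In both fits 2 were called higher. *Csf1r*, the receptor that microglia need to survive, stood at 31.3, 29.7, 38.0 and 31.8 CPM in the control libraries and 67.5, 53.1, 55.2 and 55.5 CPM in the HD libraries, a rise of 0.82 ± 0.13, adjusted p = 0.000707 (0.55 ± 0.10, adjusted p = 0.00295 with offsets). *C1qa*, a complement gene, and *Tmem119* were called without offsets only (0.91 ± 0.13 and 0.92 ± 0.14, and 0.24 ± 0.13, adjusted p = 0.206 and 0.28 ± 0.14, adjusted p = 0.151 with offsets). These genes have 59.5% and 60.8% GC. In the Gad2 line the list's median was 0.15.

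Of Bergmann glia and astrocyte markers, 3 of 12 were called higher and 2 lower (median 0.19, and with offsets 2 higher and 2 lower, median 0.02), near the shares over all genes. The water channel gene *Aqp4* stood at 355, 274, 214 and 312 CPM in the control libraries and 91.6, 111, 74.3 and 114 CPM in the HD libraries, a fall without overlap in both fits (-1.56 ± 0.19, adjusted p = 0.000202, and -1.43 ± 0.17, adjusted p = 0.000545 with offsets). It had -0.29 in the Gad2 line and -0.08 in the pulldown. *Apoe*, the main carrier of lipid in brain, rose without offsets and not with them (0.61 ± 0.11, and -0.10 ± 0.08, adjusted p = 0.392 with offsets). Meningeal fibroblasts had 3 of 6 markers called higher, ependymal cells 2 of 4, endothelial cells 2 of 7 with 1 lower, mural cells 1 of 5 with 2 lower, oligodendrocyte precursors 1 of 3 with 1 lower, and brainstem and deep nuclear neurons 1 of 8 with 2 lower. With offsets these types had, in the same order, 2, 0, 1, 0, 1 and 1 called higher and 0, 0, 0, 1, 1 and 0 lower. The shares over all genes were 24.4% higher and 27.3% lower, or 15.3% and 14.9% with offsets. No marker of choroid plexus or erythroid cells was called in either fit, and of cerebral neurons 0 without and 1 with offsets. The part of shifts in cell type content in the changes of other genes was not tested.

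Without offsets, genes of synaptic receptors and ion channels were mostly called lower in HD. Of 19 glutamate and GABA receptor subunits, with a median GC content of 46.2%, 4 were called higher and 14 lower (median -0.92), and with offsets 1 higher and 9 lower (median -0.15). Over all genes 27.3% were called lower, and 14.9% with offsets. *Gabrb2*, a subunit of the main GABA receptor, stood at 152, 88.1, 118 and 130.1 CPM in the control libraries and 33.2, 14.3, 12.6 and 16.4 CPM in the HD libraries, and *Gria3*, a subunit of AMPA receptors, at 104, 104, 74.3 and 118 CPM in the control libraries and 25.9, 13.4, 10.1 and 14.7 CPM in the HD libraries. HD 1 was the highest of the HD libraries for both, still far below the controls. The falls were -2.67 ± 0.31, adjusted p = 0.000178, and -2.64 ± 0.28, adjusted p = 0.000123, with -1.94 ± 0.32, adjusted p = 0.00228, and -1.48 ± 0.26, adjusted p = 0.00277 under offsets. *Grin2a*, an NMDA receptor subunit gene of 52.5% GC, fell to a similar degree in both fits (-1.98 ± 0.23, and -1.87 ± 0.20 with offsets). In the Gad2 line the same genes had -0.43, -0.42 and -0.20, and in the pulldown -0.29, -0.41 and -0.12, none of them called.

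Of 16 potassium and sodium channel genes, with a median GC content of 50.3%, 2 were called higher and 10 lower (median -0.57), and with offsets 0 higher and 5 lower (median -0.23), beside 27.3% lower over all genes, and 14.9% with offsets. *Scn1a*, a sodium channel of fast-spiking neurons, stood at 202, 158, 136 and 212 CPM in the control libraries and 65.2, 36.2, 21.4 and 43.6 CPM in the HD libraries, a fall of -2.09 ± 0.30 that shrank with offsets (-0.81 ± 0.25, adjusted p = 0.0361). *Kcnma1*, the large-conductance calcium-activated potassium channel, fell in both fits (-1.99 ± 0.23, and -1.49 ± 0.21 with offsets).

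Of 17 genes of vesicle fusion, 5 were called higher and 4 lower (median 0.06, and with offsets 3 higher and 6 lower, median -0.21), beside 24.4% and 27.3% over all genes, and 15.3% and 14.9% with offsets. *Snap25*, a SNARE protein that drives fusion, stood at 4609, 4073, 2906 and 4510 CPM in the control libraries and 1593, 1534, 1199 and 1847 CPM in the HD libraries. Its fall was -1.38 ± 0.17, adjusted p = 0.000232, and -0.45 ± 0.09, adjusted p = 0.00668 with offsets, beside -0.71 ± 0.11 in the pulldown (adjusted p = 0.0051) and -0.25 ± 0.33 in the Gad2 line. *Rims1* and *Unc13c*, which prepare vesicles for release, fell in both fits (-1.42 ± 0.15 and -1.94 ± 0.25, and -1.03 ± 0.12 and -0.97 ± 0.23 with offsets). *Vamp2*, the SNARE of the vesicle membrane, was called higher without offsets only (0.86 ± 0.11, and 0.23 ± 0.13, adjusted p = 0.195 with offsets). *Cplx2*, which encodes a clamp of the fusion machinery, was not called: it stood at 1281, 1282, 1504 and 972 CPM in the control libraries and 606, 1112, 1289 and 971 CPM in the HD libraries, with overlap (-0.34 ± 0.22, adjusted p = 0.21).

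Without offsets, nuclear genes for the ribosome, the respiratory chain and the proteasome were mostly called higher in HD, beside 24.4% of all genes, and 15.3% with offsets. Cytosolic ribosomal protein transcripts summed to 16550, 14800, 19120 and 16170 CPM in control and 22470, 30800, 33520 and 25770 CPM in HD libraries, with no overlap, and of 81 genes 61 were called higher and 0 lower (median 0.75). With offsets 39 were higher and 0 lower (median 0.38). *Rps14* stood at 271, 241, 266 and 232 CPM in the control libraries and 836, 634, 612 and 508 CPM in the HD libraries, a rise of 1.36 ± 0.15, adjusted p = 0.000155 (0.74 ± 0.16, adjusted p = 0.00668 with offsets), and *Rplp0* rose by 1.17 ± 0.12 (0.50 ± 0.09 with offsets). Of 81 nuclear genes of oxidative phosphorylation, 52 were higher and 0 lower (median 0.58), and with offsets 31 higher and 3 lower (median 0.30). *Atp5b*, the catalytic subunit of ATP synthase, rose alike in both fits (0.74 ± 0.12, and 0.77 ± 0.11 with offsets), and *Cox4i1* of cytochrome c oxidase less with offsets (1.19 ± 0.13, and 0.55 ± 0.15 with offsets). Of 38 proteasome subunits, 21 were higher and 4 lower (median 0.52, and with offsets 22 higher and 1 lower, median 0.41), among them *Psmb3* (1.01 ± 0.15, and 0.70 ± 0.13 with offsets). In the Gad2 line the medians of these lists were 0.18, 0.15 and 0.15, beside 0.007 over all genes tested there.

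Genes encoded in the mitochondrion itself turned with the adjustment. They have a median GC content of 37.1%, and 1 of 13 was called higher and 4 lower without offsets (median -0.59), against 8 higher and 0 lower with them (median 1.07). Over all genes 24.4% were called higher and 27.3% lower, or 15.3% and 14.9% with offsets. The share called lower without offsets was near that of all genes, and the share called higher with offsets was above it. *mt-Cytb*, a subunit of complex III, stood at 10610, 7672, 6379 and 10290 CPM in the control libraries and 5158, 4287, 2828 and 3545 CPM in the HD libraries, with -1.14 ± 0.21, adjusted p = 0.00155 without and 0.14 ± 0.21, adjusted p = 0.652 with offsets. *mt-Nd4*, of complex I, had -1.12 ± 0.34, adjusted p = 0.0175 without and 0.60 ± 0.25, adjusted p = 0.0968 with offsets, and lost its call without control 1 (-0.96). Control 3, whose GC slope was the nearest to the HD group, also had the lowest mitochondrial level of the controls. HD 2, whose GC slope of 0.33 was above that of HD 4 (0.25), had the highest summed level of the HD libraries. At 67000 CPM it stood above controls 2 and 3 (61980 and 34630 CPM), so the summed levels overlapped between the groups. Whether these transcripts differed between genotypes cannot be told apart from the trend.

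*Gapdh* of glycolysis, among the most abundant genes called higher, rose in both fits, at 1727, 2051, 2042 and 2277 CPM in the control libraries and 5495, 3761, 3780 and 4383 CPM in the HD libraries (1.10 ± 0.14, adjusted p = 0.000271, and 0.51 ± 0.15 with offsets). It did not overlap between groups. Counts assigned to *Lars2*, which encodes the leucyl-tRNA synthetase of mitochondria, stood at 1055, 1112, 758 and 1580 CPM in the control libraries and 5298, 3847, 2290 and 3416 CPM in the HD libraries. The values are sums per gene, so the part of the transcript that the reads came from was not tested. *Lars2* has 49.5% GC, near the median of all genes. Its rise was 1.72 ± 0.27, adjusted p = 0.000721 (1.91 ± 0.26, adjusted p = 0.000882 with offsets), beside 0.25 in the Gad2 line and 0.03 in the pulldown.

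Of 334 zinc finger genes, the largest list, 43 were called higher and 204 lower (median -0.97), and with offsets 22 higher and 112 lower (median -0.33), beside 27.3% lower over all genes, and 14.9% with offsets. Their median GC content was 46.6%. *Zfp966* stood at 6.94, 6.15, 1.71 and 6.43 CPM in the control libraries and 0.780, 0.188, 0.127 and 0.297 CPM in the HD libraries, with control 3 the lowest of the controls. Its log2 fold change was -3.92 ± 0.61 (-2.15 ± 0.52, adjusted p = 0.0126 with offsets). The predicted gene *Gm38394* fell nearly as far (-3.55 ± 0.59, and -2.24 ± 0.57, adjusted p = 0.0149 with offsets), and *Zfp493* had -3.16 ± 0.33 (-2.35 ± 0.33 with offsets). *Myo15*, a motor protein gene at a low level in every library, fell in both fits and in the pulldown (-3.66 ± 0.83 without and -3.70 ± 0.81 with offsets, and -3.69 ± 0.47, adjusted p = 0.000882). Without HD 1 its log2 fold change was -5.68, and without control 2 it did not pass the filter on counts and was not tested. A large rise was in a gene near the detection limit: *Hoxb3*, of the Hox clusters that pattern the hindbrain, stood at 0.0215, 0.0420, 0 and 0 CPM in the control libraries and 0.178, 0.483, 1.81 and 0.173 CPM in the HD libraries (5.08 ± 1.09, adjusted p = 0.00348). HD 3 was the highest library, and without it the gene did not pass the filter on counts and was not tested. Of the Hox genes, 2 of 39 passed the filter on counts and 1 was called higher.

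Clustered protocadherins, cell surface proteins that give neurons distinct identities, shifted upward with offsets. Of 56, 18 were called higher and 9 lower without offsets (median -0.02), and 30 higher and 0 lower with them (median 0.64), beside 24.4% higher over all genes, and 15.3% with offsets. *Pcdhgb6* stood at 35.9, 26.4, 36.4 and 29.8 CPM in the control libraries and 106, 63.7, 68.8 and 81.0 CPM in the HD libraries, a rise of 1.31 ± 0.18, adjusted p = 0.000382 (1.30 ± 0.14 with offsets). *Pcdhgc3*, the most abundant, rose by 0.66 ± 0.15 (0.57 ± 0.12 with offsets) and had -0.37 in the pulldown.

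Over all genes 24.4% were called higher and 27.3% lower, or 15.3% and 14.9% with offsets, and the following lists of stress, lipid and clock genes stand beside these shares. Of 18 heat shock proteins and co-chaperones, 5 were higher and 7 lower (median 0.10, and with offsets 3 higher and 2 lower, median 0.09). The inducible *Hsp90aa1* stood at 645, 762, 914 and 1075 CPM in the control libraries and 522, 199.7, 213 and 215 CPM in the HD libraries, a fall of -1.56 ± 0.31, adjusted p = 0.00247 (-1.21 ± 0.33, adjusted p = 0.0222 with offsets) that was smaller in HD 1. The constitutive *Hspa8* rose (0.67 ± 0.19, adjusted p = 0.0142, and 0.62 ± 0.18, adjusted p = 0.0262 with offsets), and lost its call without control 2 (0.58). Unfolded protein response genes had 4 higher and 4 lower of 16 (median 0.07, and with offsets 4 higher and 3 lower), interferon-response genes 3 higher and 1 lower of 10 (median 0.48, and with offsets 5 higher and 0 lower), immediate early genes 2 higher and 1 lower of 16 (median 0.18, and with offsets 1 higher and 2 lower, median -0.28), and replication-dependent histones 6 higher and 1 lower of 19 (median 0.46, and with offsets 6 higher and 0 lower). Cholesterol synthesis had 9 higher and 8 lower of 22 (median 0.17), and with offsets 6 higher and 2 lower (median 0.17): *Hmgcs1* fell (-1.24 ± 0.18, and -0.52 ± 0.12 with offsets), and *Fdps*, later in the pathway, rose (1.005 ± 0.21, and 0.65 ± 0.19 with offsets). Of 18 clock genes, 2 were higher and 6 lower (median -0.12, and with offsets 1 higher and 3 lower). *Per3* fell alike in both fits (-1.39 ± 0.16, and -1.30 ± 0.14 with offsets), whereas *Clock*, of 41.4% GC, was called lower without offsets only (-1.57 ± 0.23, and -0.15 ± 0.13, adjusted p = 0.422 with offsets).

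Of 9 genes of mismatch repair and related DNA repair, some of which bear on the length of CAG repeats, 1 was called higher and 5 lower (median -0.48), and with offsets 1 higher and 4 lower (median -0.24), beside 27.3% lower over all genes, and 14.9% with offsets. *Msh3*, a mismatch recognition subunit and a known modifier of repeat expansion, stood at 16.1, 20.4, 18.0 and 19.4 CPM in the control libraries and 8.24, 3.73, 4.23 and 4.03 CPM in the HD libraries. HD 1 was the highest of the HD libraries and below all controls. Its fall was -1.87 ± 0.25, adjusted p = 0.00032 (-1.26 ± 0.27, adjusted p = 0.00657 with offsets), beside -0.26 in the Gad2 line and 0.21 in the pulldown. *Fan1*, a nuclease and another known modifier, stood at 8.47, 8.71, 8.47 and 7.62 CPM in the control libraries and 3.43, 2.06, 3.54 and 3.09 CPM in the HD libraries, with -1.45 ± 0.20 (-0.96 ± 0.20, adjusted p = 0.00575 with offsets). Of 16 genes of the spinocerebellar ataxias, 2 were higher and 8 lower (median -0.41), and with offsets 2 higher and 7 lower (median -0.16), among them the kinase gene *Ttbk2* (-1.72 ± 0.23, and -0.99 ± 0.17 with offsets).

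**Figure D4:**
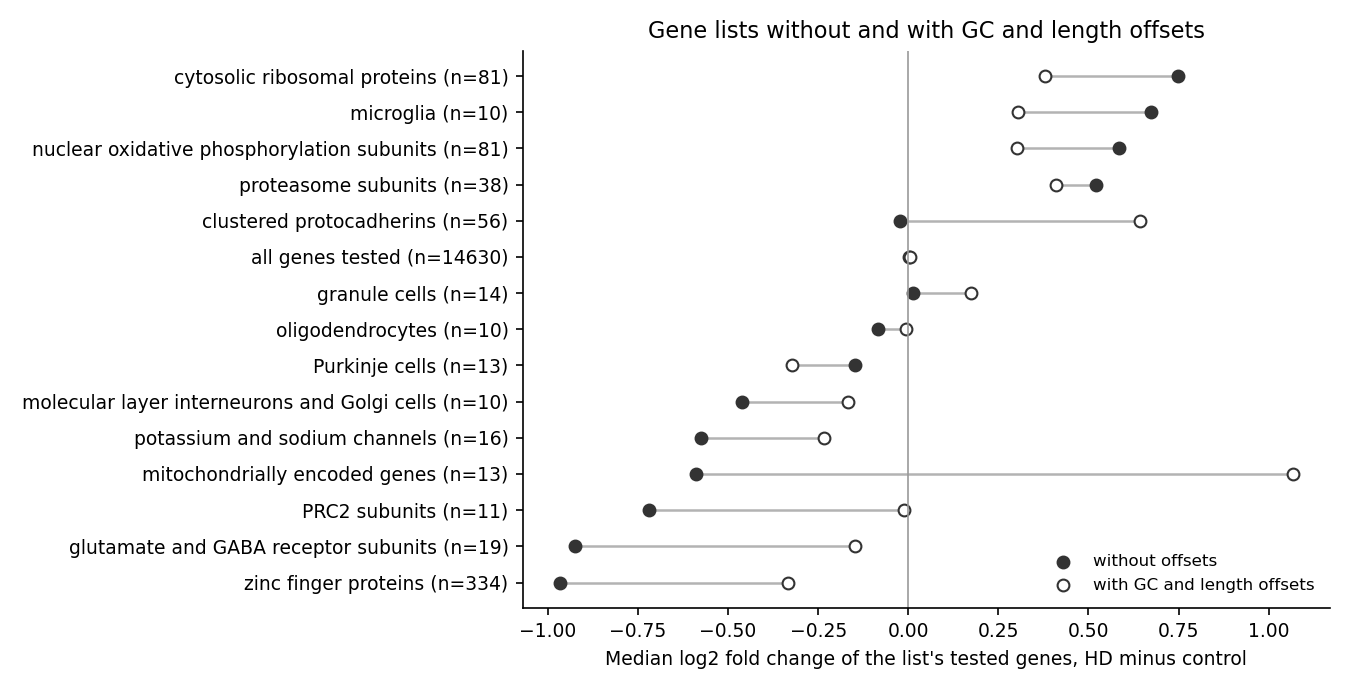
Median log2 fold change (HD minus control) of the tested genes of gene lists and of all genes tested, without offsets (filled) and with GC and length offsets (open). Mitochondrially encoded genes shifted from -0.59 to 1.07.

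Cerebellar total RNA of the Gad2 line gives the same tissue from other mice, 3 HD and 3 control. There edgeR called 0 of 14226 genes (0%), with 316 at an unadjusted p under 0.05 and a smallest adjusted p of 0.374. DESeq2 called 17 (0.119%) and edgeR with offsets 6 (0.0422%). Across the 14200 genes tested in both lines, Spearman's rho of the log2 fold changes was 0.438 without and 0.424 with offsets, a description across genes that share base composition. In a joint fit, the HD effect differed between the lines for 238 of 14477 genes (1.64%), 38 of them (0.262%) with a higher and 200 (1.38%) with a lower value in the vGluT2 line. Among them were *Per3*, *Fan1*, *Zfp493* and the chloride channel gene *Clic3*, with differences of -1.30, -1.28, -3.15 and 3.09 on the log2 scale. *Ccnd1*, *Cbx8* and *Igfbp5* were not, with 0.13, 0.36 and -0.18. The count rested on single libraries: it was 0 without vGlut2 control 1, 2 or 4, vGlut2 HD 2, 3 or 4, Gad2 control 1 or 3 or Gad2 HD 1, and 1 without Gad2 HD 3, 216 without vGlut2 control 3, 649 without vGlut2 HD 1, 2390 without Gad2 control 2 and 3054 without Gad2 HD 2. DESeq2 called 1843 genes and edgeR with offsets 158.

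The pulldown shares mice with the total RNA, so its values stand beside them and add no independent support. Between 5 control and 6 HD libraries it gave 285 called genes of 13487 (2.11%). In the 7 mice labelled as having both preparations, 3 control and 4 HD, the HD effect differed between total RNA and pulldown for 2473 of 14329 genes (17.3%), 798 (5.57%) with a higher and 1675 (11.7%) with a lower value in total RNA. *Gabrb2*, *Setd2*, *Unc13c*, *Msh3* and *Gria3* had lower values in total RNA, by -2.52, -2.29, -2.08, -2.03 and -2.02, and *Cox4i1*, *Csf1r* and *Slc17a7* higher ones, by 1.08, 1.03 and 0.999. *Ccnd1* and *Cbx8* were not called (-0.11 and 0.23). Without the mouse of control 2, whose preparations differ in Y-linked genes, 706 genes were called. In that fit *Gabrb2*, *Setd2*, *Unc13c* and *Msh3* were still called (-2.74, -2.38, -2.25 and -1.99), and *Gria3*, *Cox4i1*, *Csf1r* and *Slc17a7* were not (-1.84, 0.87, 1.03 and 0.80, with adjusted p of 0.08, 0.0707, 0.119 and 0.0552). The count was 699 without the mouse of control 1, 1536 without control 3, 1041 without HD 2, 1296 without HD 3 and 4308 without HD 4, and 823 (5.74%) with offsets.

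Base composition, length and genotype were aligned in these libraries, and the part of library preparation or RNA quality in the trend was not tested, since the labels of these libraries give neither a batch nor a measure of integrity. Sex, choroid plexus content and the identity of control 2 vary between libraries and their part in single genes was not tested beyond the fits without those libraries and a fit with *Xist* as covariate.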

How the data were processed

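The values are expected counts per gene that the authors deposited, made with STAR and Salmon on build GRCm38.p6 as given in the submitters' processing notes, without versions. Non-whole values (9.26%) were rounded. Genes were matched to GENCODE M21, which also gave the transcript GC content and length. Spike-ins were left out. Protein-coding genes whose mean count passed 10 were tested with edgeR 4.0.16 (TMM, quasi-likelihood) in R 4.3.3 and called at a Benjamini-Hochberg adjusted p of at most 0.05, with DESeq2 1.42.0 as the other tool. CPM were scaled by TMM, and errors are standard errors. Offsets came from loess fits (span 0.4) per library. Slopes were compared by exact permutation. Figures used matplotlib 3.10.9. Methods were tested on simulated data. Named genes were the largest called changes without overlap, the most abundant called genes, the largest changes and the most abundant gene of each list, a preset set around *Ccnd1* and the largest interactions; those printed were picked from these after their values were seen. Members and lists were chosen with earlier results of these data known. The replicate numbers did not pair the libraries.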

Additional observations from a re-analysis of the deposited data

Results flagged for a closer look

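In 21 of the 232 sets of 4 values tested, 1 library lay far from the other 3 of its group by Dixon's criterion. Chance flags about 1 in 20 groups. Among single genes, in CPM, control 1 stood apart for *Cbln3* (2711), control 3 stood apart for *Zfp966* (1.71), *Apoe* (1641) and *Rb1* (23.7), control 4 stood apart for *Slc17a6* (65.9) and *Cbx8* (10.9), HD 1 stood apart for *Gm38394* (4.03), *Csf1r* (67.5), *Hsp90aa1* (522), *Fdps* (135), *Msh3* (8.24), *Cox4i1* (1946) and *Setd2* (22.9) and HD 3 for *Mobp* (209.8). Among summed marker or list levels, in CPM, these were oligodendrocytes (5850, control 4), microglia (268, HD 3), sex-linked genes (90.5, control 2), circadian clock genes (2150, control 1), genes of mismatch repair and related DNA repair (122, control 1), clustered Hox genes (6.86, HD 3) and replication-dependent histones (138, control 2). No cause was tested.

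The HD effect on log2 level differed between the vGluT2 and Gad2 lines, by the interaction term, for 4 of 69 named genes, beside 1.64% of all genes tested: *Per3* (-1.30), *Fan1* (-1.28), *Zfp493* (-3.15) and *Clic3* (3.09). *Zfp493* and *Clic3* had been named for the size of this difference. The effect differed between total RNA and pulldown for 34. Most of the named genes had been chosen for large changes or high levels in total RNA, so this share is not set against that of all genes. Lower in total RNA were *Gm38394* (-3.55), *Zfp966* (-3.48), *Gabrb2* (-2.52), *Setd2* (-2.29), *Unc13c* (-2.08), *Msh3* (-2.03), *Gria3* (-2.02), *Scn1a* (-1.80), *Grin2a* (-1.71), *Hsp90aa1* (-1.67), *Clock* (-1.63), *Ttbk2* (-1.58), *Kcnma1* (-1.54), *Ermn* (-1.51), *Phc3* (-1.48), *Fan1* (-1.25), *Aqp4* (-1.22), *Suz12* (-1.20), *Rb1* (-1.13), *Hmgcs1* (-1.09), *Per3* (-1.05) and *Rims1* (-1.05). Higher in total RNA were *Cox4i1* (1.08), *Calb2* (1.07), *Csf1r* (1.03), *Gapdh* (1.01), *Slc17a7* (0.999), *Pcdhgc3* (0.96), *Rps14* (0.95), *Vamp2* (0.88), *Rplp0* (0.86), *Fdps* (0.83), *Psmb3* (0.71) and *Igfbp5* (0.61). The mouse of control 2 had preparations that differed in Y-linked genes, and without it all 34 kept their direction and 10 were called: *Gabrb2*, *Setd2*, *Unc13c*, *Msh3*, *Grin2a*, *Ermn*, *Rims1*, *Per3*, *Gapdh* and *Vamp2*.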

How the results depend on the processing

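The 7565 calls became 4815 with GC offsets, 4417 with GC and length offsets and 3544 with both lines and a line covariate. With a replicate block they were 7419, and 3785 with the replicate block and offsets. Not every library correlated best with its own replicate number (correlations of deviations -0.05, 0.12, 0.25 and 0.14 for equal numbers and 0.28 for control 1 and HD 4). DESeq2, DESeq2 size factors, upper-quartile factors, no filter, filterByExpr, all gene types, length offsets, an *Xist* covariate, 4 groups in 1 fit and thinning gave 7939, 7549, 7815, 7409, 7581, 8045, 6892, 6592, 7067 and 7506. Upper-quartile factors moved the share of calls that were higher from 47.2 to 53.1%. Fits without control 4 and HD 4, fits of the count with offsets under other settings and offsets in the Gad2 and preparation comparisons were chosen after seeing the data. Without that pair the calls were 6073, and 2404 with offsets. A loess span of 0.2 gave 4398. The Gad2 line had 17 calls with DESeq2, 6 with offsets and 0 to 1 with a library left out. The line interaction had 1843 with DESeq2, 158 with offsets and 0 to 3054 with a library left out. The preparation interaction had 4066 without the mouse block, 823 with offsets and 699 to 4308 with a mouse left out. The first component held 59.3% with more genes and 30.6% with offsets. With a library left out the GC slope difference was 0.84 to 1.005 and the length slope difference -1.37 to -1.12, each with an exact permutation p of 0.0286.

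Log2 fold changes that turned sign were, with GC offsets, *mt-Cytb* 0.30, *mt-Nd4* 0.70, *Gabra6* 0.21, *Slc32a1* -0.070, *Mbp* -0.28, *Ttr* 0.30, *Suz12* 0.045, *Rb1* 0.0011 and *Htt* 0.16. With length offsets *Cplx2* was 0.23. With GC and length offsets they were *mt-Cytb* 0.14, *mt-Nd4* 0.60, *Gabra6* 0.25, *Apoe* -0.098, *Mbp* -0.35, *Ttr* 0.13, *Suz12* 0.039 and *Htt* 0.38, and with the replicate block added *mt-Cytb* 0.084, *mt-Nd4* 0.50, *Gabra6* 0.26, *Apoe* -0.098, *Mbp* -0.35, *Suz12* 0.032 and *Htt* 0.37. With a line covariate *Mbp* was -0.071 and *Clic3* -0.41. With a library left out *Mbp* ran from -0.011 to 0.16 and *Ttr* from -0.60 to 0.16. The cause was not tested. With a library left out, 534 gene values kept direction and call, 14 lost the call and 2 turned sign, and 2 were not tested. Among the 69 named genes, calls were lost for 6 with GC offsets, 10 with GC and length offsets, 4 with length offsets, 3 with an *Xist* covariate and 13 with a line covariate, in the same direction.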

Other observations

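Non-coding genes, examined after their values were seen, differed by type. In the edgeR fit over all gene types (8045 of 16591 called, 48.5%, with 22.7% higher and 25.8% lower), 131 of 431 long intergenic RNAs were called lower and 16 higher, at a median log2 change of -0.47, and 63 of 417 antisense RNAs lower and 21 higher, with a median of -0.03. Of 228 genes of the type TEC, transcripts that lack experimental support, 98 were lower and 6 higher (median -0.98). Processed pseudogenes had 29 of 321 higher and 28 lower (median 0.32). Of small RNA types, 8 of 13 snRNAs were called higher (median 2.56), 3 of 5 miscellaneous RNAs, 3 of 4 snoRNAs, 3 of 3 ribozymes, 2 of 3 rRNAs, 0 of 1 miRNA and 0 of 1 scaRNA, with 0 lower. The imprinted nuclear RNA *Meg3* stood at 351, 507, 206 and 387 CPM in the controls and 75.0, 21.9, 26.6 and 34.3 CPM in HD. Every HD library was far below every control (-3.20 ± 0.42, adjusted p = 0.000346). In cerebellar total RNA of the Gad2 line the groups overlapped for *Meg3*, at 201.9, 227.8 and 194.5 CPM in controls and 279.2, 124.5 and 266.4 CPM in HD. They also overlapped in the vGluT2 pulldown, at 53.7 to 195.8 CPM in controls and 51.9 to 349.9 CPM in HD. *Rian*, from the same imprinted cluster, was not called (-0.50 ± 0.20, adjusted p = 0.0636), nor was *Mirg* (-0.46 ± 0.22, adjusted p = 0.111). *Neat1*, the scaffold of nuclear paraspeckles, stood at 34.1, 53.4, 13.9 and 41.6 CPM in the controls and 8.85, 2.07, 3.96 and 3.32 CPM in HD (-2.97 ± 0.49, adjusted p = 0.00109). *Miat* and *Kcnq1ot1*, other nuclear RNAs, fell too (-1.44 ± 0.38, adjusted p = 0.011, and -1.93 ± 0.40, adjusted p = 0.00334). The groups overlapped for *Miat*, with HD 1 and HD 3 (2.58 and 2.56 CPM) above control 3 (2.21 CPM). *Malat1*, abundant in nuclear speckles, overlapped between the groups at 1215, 211, 148 and 724 CPM in the controls and 365, 269, 145 and 267 CPM in HD (-1.13 ± 0.58, adjusted p = 0.132). Offsets were not fitted for these genes.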
